A study of Homo sapiens with 10 samples.

Results

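The transcripts described here are those of the cyclins and cyclin-dependent kinases (CDKs) that carry a cell from G1 through S phase and mitosis. Members were chosen by gene symbol, as the rows named CCND1, CCND2, CCND3, CCNE1, CCNE2, CCNA2, CCNB1, CCNB2, CDK1 and CDK2 in both expression tables. Of these 10 genes, 9 were found in both tables, which share 11258 transcripts, and CCND2 was not analysed here. The rule itself uses no measured value.

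RNA-Seq and Ribo-Seq were applied to BJ cells, human foreskin fibroblasts immortalized by expression of telomerase (hTERT). The control was left untreated, and the other groups were kept on nutlin-3a, a small molecule that occupies the p53 pocket of MDM2 and thereby activates p53, for 2, 4, 6 or 19 h. RNA-Seq read poly(A) RNA, and Ribo-Seq read the mRNA fragments that ribosomes protect, after a treatment of the cells with cycloheximide. Each group was 1 library, so 5 libraries of each assay were available, the differences below could not be checked between replicates, and no p-value was computed. All cells carried hTERT, the control included, and the labels do not say whether they came from 1 clone.

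Cyclins are the regulatory subunits of CDKs, and a CDK is active only when bound to a cyclin. D cyclins pair with CDK4 and CDK6 in G1 and answer to growth factors, E cyclins pair with CDK2 at entry into S phase, cyclin A2 pairs with CDK2 in S phase and with CDK1 in G2, and B cyclins pair with CDK1 in mitosis. In fibroblasts p53 arrests the cycle chiefly through the CDK inhibitor p21, and under that arrest the DREAM complex of p130, E2F4 and MuvB proteins is known to occupy many promoters of S phase and mitotic genes, at E2F sites and at the cell-cycle genes homology region (CHR), often beside CCAAT boxes bound by NF-Y.

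To show what such promoters look like in the members that changed most, the 250 bases before the start site were taken from RefSeq (build GRCh38.p14), which gave windows for 6 of the members. They are printed for the mitotic and S phase members CCNA2, CCNB1, CCNB2 and CDK1, and for CCNE1 of the G1/S transition as the window without a match, each 5′ to 3′ on the gene's strand. Capitals mark matches on either strand to these letters. The CCAAT box was searched by its own name. The CHR was searched as TTTGAA, and as the variant of this element with the letters TTCGAA. Other variants of the CHR were not searched, so a window without a match may still hold a CHR. E2F sites were searched as TTTCCCGC, TTTCGCGC, TTTGCCGC or TTTGGCGC. Other forms of the E2F site were not searched either, so a window without a match, that of CCNE1 included, may still hold one. No match shown overlaps another. The windows are chr4:121823884-121824133 (minus strand) for CCNA2, chr5:69166900-69167149 (plus strand) for CCNB1, chr15:59104896-59105145 (plus strand) for CCNB2, chr10:60778228-60778477 (plus strand) for CDK1 and chr19:29811741-29811990 (plus strand) for CCNE1.
CCNA2: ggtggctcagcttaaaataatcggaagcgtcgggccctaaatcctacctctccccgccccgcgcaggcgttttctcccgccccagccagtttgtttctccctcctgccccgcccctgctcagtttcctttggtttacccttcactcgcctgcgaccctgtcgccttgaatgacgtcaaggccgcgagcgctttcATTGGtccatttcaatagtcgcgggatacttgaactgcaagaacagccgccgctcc
CCNB1: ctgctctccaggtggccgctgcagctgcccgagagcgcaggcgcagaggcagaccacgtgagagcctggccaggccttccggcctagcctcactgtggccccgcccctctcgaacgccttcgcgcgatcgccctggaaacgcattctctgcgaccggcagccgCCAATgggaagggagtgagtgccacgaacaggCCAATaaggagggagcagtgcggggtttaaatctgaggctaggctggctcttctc
CCNB2: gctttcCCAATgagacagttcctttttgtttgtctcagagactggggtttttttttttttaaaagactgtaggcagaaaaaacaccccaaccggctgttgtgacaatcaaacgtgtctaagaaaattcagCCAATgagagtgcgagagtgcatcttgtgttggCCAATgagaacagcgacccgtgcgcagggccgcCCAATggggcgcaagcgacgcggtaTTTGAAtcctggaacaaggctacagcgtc
CDK1: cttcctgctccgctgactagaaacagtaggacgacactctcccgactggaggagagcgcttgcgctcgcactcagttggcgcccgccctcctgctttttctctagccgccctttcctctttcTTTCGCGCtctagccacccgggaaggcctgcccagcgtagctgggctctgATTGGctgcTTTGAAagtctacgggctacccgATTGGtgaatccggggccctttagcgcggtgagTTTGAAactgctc
CCNE1: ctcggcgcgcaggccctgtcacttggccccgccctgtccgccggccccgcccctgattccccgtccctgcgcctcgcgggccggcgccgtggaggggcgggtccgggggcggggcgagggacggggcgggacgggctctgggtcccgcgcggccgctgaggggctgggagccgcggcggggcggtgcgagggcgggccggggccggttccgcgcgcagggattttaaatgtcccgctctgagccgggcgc

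Of 35116 RefSeq windows of this length, 14.3% held a CHR match, 32.0% a CCAAT match, 2.79% an E2F match and 5.05% both CHR and CCAAT. CCNB2 held 4 CCAAT matches, whose first bases lay at -244, -120, -87 and -54 from the start, and a CHR match at -29. CCNB1 held 2 CCAAT matches, at -87 and -55, and at least 2 were found in 9.53% of all windows. CCNA2 held 1 CCAAT match, at -56. The CDK1 window printed held 2 CHR matches (-69 and -13), 2 CCAAT matches (-78 and -46) and an E2F match (-128), and it was chosen over an overlapping CDK1 window that held 1 CHR and 1 CCAAT match. For CCND3, a member that changed little, RefSeq gave 3 windows, of which 2 held 1 CCAAT match each and none a CHR or E2F match. These matches describe the letters only, and whether any of them is bound was not measured.

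Levels are given in FPKM, reads scaled to transcript length and library size, which may be set side by side between genes in RNA-Seq. Ribo-Seq levels are scaled to the whole transcript too, so that differences between genes there also carry the share of each transcript that is coding. Within a gene this share is the same in every library. Reads outside the coding sequence may have been counted as well, and the study lists shares of them that differ between its Ribo-Seq samples. Changes within a gene may carry that difference, which was not tested. The RNA-Seq libraries held 23845544 to 27554296 reads and the Ribo-Seq libraries 7744896 (19 h) to 14460742 (4 h), as recovered from the spacing of the values. All 10 fibroblast markers examined, such as COL1A1 and VIM, were well above 1 FPKM in both assays, with a summed RNA level of 9365 to 12630 FPKM, and of 4 endothelial and 4 blood cell markers none reached 1 FPKM in RNA. In Ribo-Seq the blood cell marker CD14 was the highest of these, with up to 1.10 FPKM. The epithelial markers EPCAM, CDH1 and KRT19 were not listed or below 1 FPKM in RNA, while the keratins KRT8 and KRT18 reached 14.2 and 315 FPKM. The p53 targets CDKN1A, which encodes p21, and MDM2 served as a check of the treatment. CDKN1A RNA was 68.6 FPKM in the control and 212, 915, 1204 and 1316 FPKM at 2, 4, 6 and 19 h, and MDM2 RNA was 14.9, 36.3, 203, 254 and 259 FPKM in the same order.

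A transcript is said to be called lower or higher when it differed from the control at least 2-fold, after values below 1 FPKM were set to 1. Ribosome density is the Ribo-Seq level, and translational efficiency (TE) is the log2 ratio of the Ribo-Seq to the RNA-Seq level. Log2 changes from the control are given with this floor, while folds, ratios and steps are of the values as deposited. Intervals in parentheses are 95% counting intervals from the recovered reads. They hold no error of culture or preparation, and PCR copies could not be told from independent molecules. In these bulk libraries, fewer cycling cells and less RNA per cell cannot be told apart. All comparisons with the control within an assay share 1 control library.

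The D cyclins were the only members measured that were called at no time in either assay. Cyclin D1 (CCND1) had 389 FPKM of RNA in the control and 439, 483, 440.4 and 448 FPKM at 2, 4, 6 and 19 h. Its ribosome density was 226 FPKM in the control and 255, 304, 274 and 269 FPKM at those times. All treated libraries were thus above the control in both assays, by at most 1.24-fold in RNA (1.23 to 1.26) and 1.34-fold in density (1.31 to 1.37), both at 4 h. At 19 h the RNA was 1.15-fold (1.14 to 1.17) and the density 1.19-fold (1.16 to 1.22) the control.

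Cyclin D3 (CCND3) moved the other way and as little. Its RNA was 40.2 FPKM in the control and 42.3, 35.8, 31.5 and 31.5 FPKM at 2, 4, 6 and 19 h. Its density was 43.5, 44.9, 39.9, 36.4 and 37.7 FPKM in the same order of libraries. The libraries of 4, 6 and 19 h lay below the control in both assays. At 19 h the RNA was 0.783 times (0.734 to 0.836) and the density 0.868 times (0.784 to 0.959) the control, while at 2 h both intervals included 1. The ratio of CCND1 to CCND3 RNA accordingly went from 9.67 (9.24 to 10.1) in the control to 14.2 (13.6 to 14.9) at 19 h, and in density from 5.20 (4.88 to 5.54) to 7.14 (6.58 to 7.75).

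The E cyclins, which activate CDK2 for the start of DNA replication, were the least abundant members and the first to fall. Cyclin E1 (CCNE1) RNA was 3.96 FPKM in the control, 2.88 at 2 h, and 0.798, 0.82 and 0.828 FPKM at 4, 6 and 19 h. Its density was 3.75, 3.07, 1.1, 1.48 and 0.464 FPKM in the same order. From 4 h on every value lay well below those of the control and 2 h, and the RNA values of 4, 6 and 19 h did not differ beyond their counting intervals. As deposited, without the floor, the control exceeded the library of 4 h 4.96-fold (3.48 to 7.23) in RNA and 3.41-fold (2.24 to 5.32) in density. At 19 h it did so 4.78-fold (3.41 to 6.86) in RNA and 8.09-fold (3.76 to 20.7) in density, the latter on 7 reads.

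Cyclin E2 (CCNE2), which shares the role of cyclin E1, went on falling in RNA after 4 h, where cyclin E1 RNA levelled off. Its RNA was 4.74 FPKM in the control and 4.41, 1.13, 0.142 and 0.035 at 2, 4, 6 and 19 h, on 376, 396, 92, 13 and 3 reads. Its density was 4.26, 3.82, 1.41, 0.089 and 0.039 FPKM, on 167, 151, 68, 3 and 1 reads. In density, by contrast, the step from 6 to 19 h was within counting error for CCNE2 (0.438 times, 0.00826 to 5.40) and beyond it for CCNE1 (0.314 times, 0.116 to 0.732). Both assays held almost no CCNE2 reads from 6 h on. The control exceeded the library of 4 h 4.19-fold (3.33 to 5.32) in RNA and that of 6 h 33.3-fold (19.3 to 63.4). At 19 h the ratio was 135 in RNA, with an interval of 46.5 to 667. In the control the ratio of CCNE1 to CCNE2 RNA was 0.837 (0.701 to 0.998), and it was 5.77 (3.11 to 10.7) at 6 h and 23.7 (7.33 to 76.3) at 19 h, so the order of these paralogs turned. On the scale with the floor, which sets every value below 1 FPKM to 1, both E cyclins stop near a log2 change of -2, with -1.99 for CCNE1 and -2.24 for CCNE2 in RNA at 19 h.

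Cyclin A2 (CCNA2), the cyclin of S phase and G2, fell late and far. Its RNA was 55.6 FPKM in the control and 49.0, 35.7, 6.96 and 1.72 at 2, 4, 6 and 19 h. Its density was 51.3, 49.4, 34.3, 4.76 and 0.877 FPKM in the same order. Each library was lower than the one before it in both assays, and the 2 h density alone was within its counting interval of the control. The control exceeded the library of 6 h 8.00-fold (7.30 to 8.77) in RNA and 10.8-fold (9.05 to 13.0) in density. At 19 h it did so 32.4-fold (27.1 to 39.1) in RNA and 58.5-fold (37.4 to 97.5) in density.

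CDK2, the kinase partner of cyclins E and A2, fell as early as cyclin A2 in RNA, but to a higher level at 19 h in both assays. Its RNA was 39.5 FPKM in the control and 34.0, 25.1, 7.13 and 4.61 at 2, 4, 6 and 19 h. Its density was 42.4, 40.5, 35.2, 4.72 and 4.27 FPKM. In density at 4 h CDK2 was 0.830 times (0.754 to 0.912) the control, against 0.668 times (0.621 to 0.717) for CCNA2. The CDK2 densities of 6 and 19 h did not differ beyond their counting interval. At 19 h the control exceeded the treated library 8.57-fold (7.42 to 9.96) in RNA and 9.95-fold (7.60 to 13.2) in density. The ratio of CCNA2 to CDK2 RNA was 1.41 (1.33 to 1.49) in the control, 0.975 (0.851 to 1.12) at 6 h and 0.372 (0.298 to 0.465) at 19 h, and in density 1.21 (1.11 to 1.31), 1.01 (0.766 to 1.33) and 0.206 (0.122 to 0.346).

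Cyclin B1 (CCNB1), the main mitotic cyclin, was second to CCND1 in the control. Its RNA was 92.8 FPKM in the control and 83.6, 72.2, 17.7 and 3.56 at 2, 4, 6 and 19 h. Its density was 119, 114, 92.6, 22.7 and 3.93 FPKM. The values of the first hours stayed within 1.29-fold of the control, and those of 6 and 19 h were far below it. The control exceeded the library of 6 h 5.23-fold (4.90 to 5.60) in RNA and 5.25-fold (4.77 to 5.78) in density, and that of 19 h 26.1-fold (22.7 to 30.2) and 30.3-fold (23.8 to 39.3).

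Cyclin B2 (CCNB2), the second B cyclin of mitosis, had 57.0 FPKM of RNA in the control and 50.0, 44.1, 13.8 and 3.70 at 2, 4, 6 and 19 h. Its density was 61.6, 49.2, 58.0, 15.8 and 2.57 FPKM. The density of 4 h was above that of 2 h, by 1.18-fold (1.08 to 1.29), whereas the RNA of 4 h was 0.881 times (0.825 to 0.939) that of 2 h. At 19 h the control exceeded the treated library 15.4-fold (13.0 to 18.3) in RNA and 23.9-fold (16.8 to 35.4) in density. CCNB1 RNA was 1.63 times (1.55 to 1.72) that of CCNB2 in the control and 0.961 times (0.778 to 1.19) at 19 h, so the difference in RNA level between the B cyclins was no longer detectable at this depth.

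CDK1, the kinase of mitosis, had 49.5 FPKM of RNA in the control and 43.0, 37.6, 7.81 and 0.946 at 2, 4, 6 and 19 h. Its density was 48.7, 38.4, 29.1, 5.66 and 0.663 FPKM. In both assays each library was lower than the one before it, and the library of 19 h held 48 RNA-Seq reads and 10 Ribo-Seq reads of CDK1, against 2299 and 1117 in the controls. The control exceeded the library of 19 h 52.3-fold (39.3 to 71.2) in RNA and 73.5-fold (39.8 to 154) in density. Among the members that had passed 5 FPKM this was the largest drop of RNA. CDK1 fell further than its cyclin, and the ratio of CCNB1 to CDK1 RNA went from 1.88 (1.78 to 1.97) in the control to 3.76 (2.75 to 5.15) at 19 h, and that of density from 2.45 (2.28 to 2.62) to 5.93 (3.05 to 11.5). The ratio of CDK1 to CDK2 RNA went from 1.25 (1.18 to 1.33) to 0.205 (0.150 to 0.281).

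**Figure D1:**
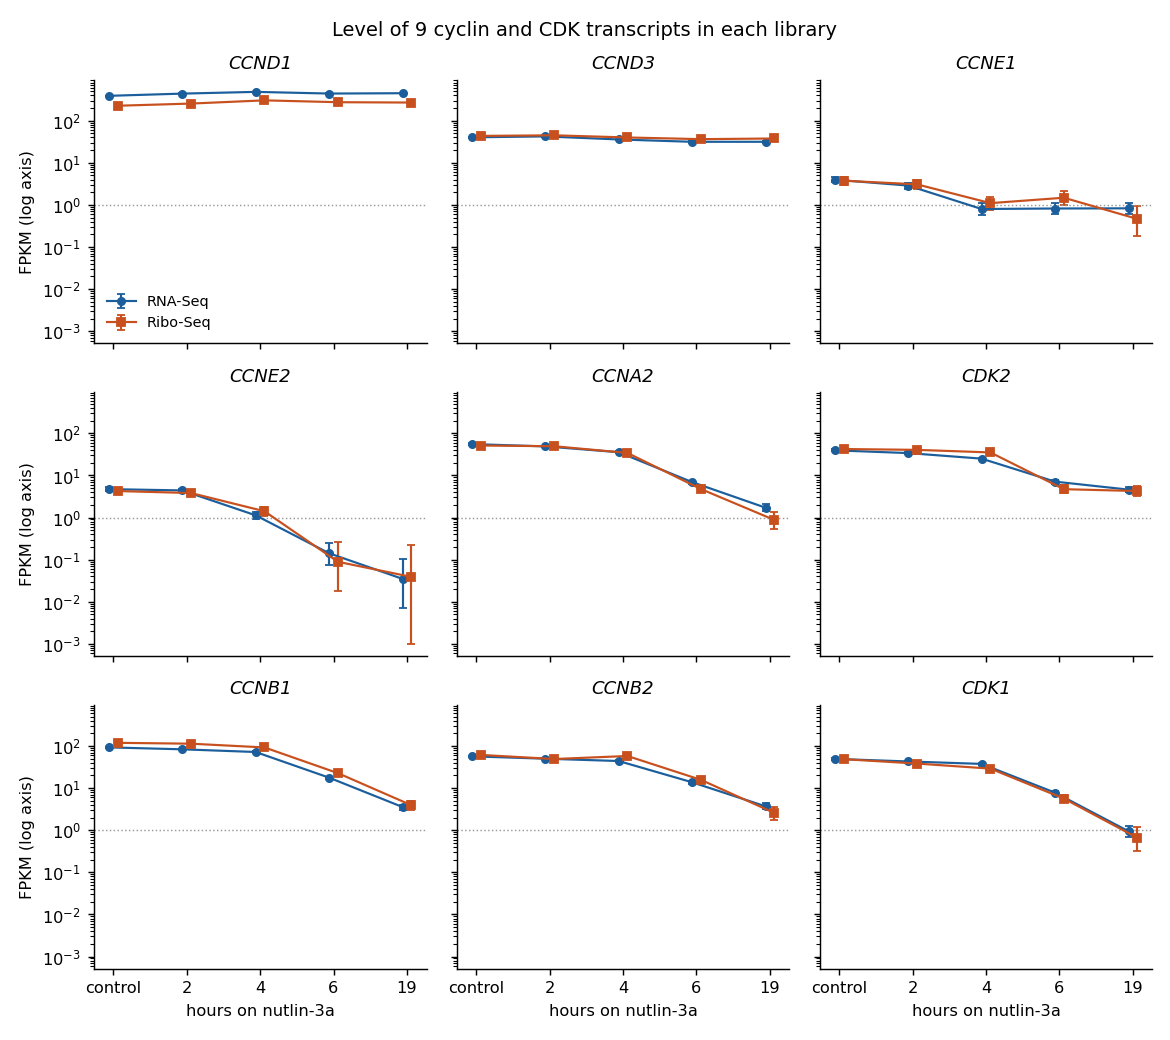
Level in FPKM (log axis) of each transcript in the control and at 2, 4, 6 and 19 h of nutlin-3a, with evenly spaced times, in RNA-Seq (blue circles) and Ribo-Seq (orange squares). Each point is 1 library, bars are 95% counting intervals, and the dotted line marks the floor of 1 FPKM. CCND1 and CCND3 stay level, CCNE1 and CCNE2 have dropped at 4 h, and the other 5 transcripts drop between 4 and 6 h, in both assays.

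Set against all genes, the members called were 0 of 9 at 2 h, 2 of 9 at 4 h, and 7 of 9 at both 6 and 19 h, in RNA and in ribosome density alike, and every call was lower. Of the 7015 tested genes, those that reached 5 FPKM in 1 or more libraries of both assays, the share called lower in RNA was 0.0143%, 0.684%, 5.39% and 7.1% at 2, 4, 6 and 19 h. In density it was 0.128%, 0.527%, 8.04% and 14.9%. The members called at 4 h were CCNE1 and CCNE2, and those called at 6 and 19 h were these with CCNA2, CCNB1, CCNB2, CDK1 and CDK2. The E cyclins lay below 5 FPKM in every library and were not among the tested genes. The other 7 members passed this filter, 5 of them through their high levels in the libraries of the first hours.

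The median log2 change of the 9 members was -0.18, -0.40, -2.24 and -3.10 in RNA at 2, 4, 6 and 19 h, against -0.05, -0.07, -0.00 and -0.07 for all tested genes. In density it was -0.07, -0.36, -2.09 and -3.31, against 0.02, 0.10, -0.02 and -0.19. These medians are with the floor, which holds CCNE2 at -2.24 in RNA and -2.09 in density at 6 and 19 h. At 6 h the median of the members is this value of CCNE2 in both assays, though CCNE2 is not among the tested genes. At 19 h the RNA of 5 tested genes and the density of 6 had fallen further than those of CDK1, and for CCNA2 these numbers were 23 and 4. CDK1 in both assays and CCNA2 in density were below 1 FPKM at 19 h, so there the floor bounds these numbers. As deposited, the control exceeded the library of 19 h 73.5-fold for CDK1 density and 58.5-fold for CCNA2 density, with overlapping intervals. CCND1 lay at the other side of the distribution, with 75.9% of tested genes below it in RNA and 72.4% in density at 19 h. CCND3 lay below the centre in RNA, with 26.0% of tested genes below it, and at the centre in density, with 49.2%.

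**Figure D2:**
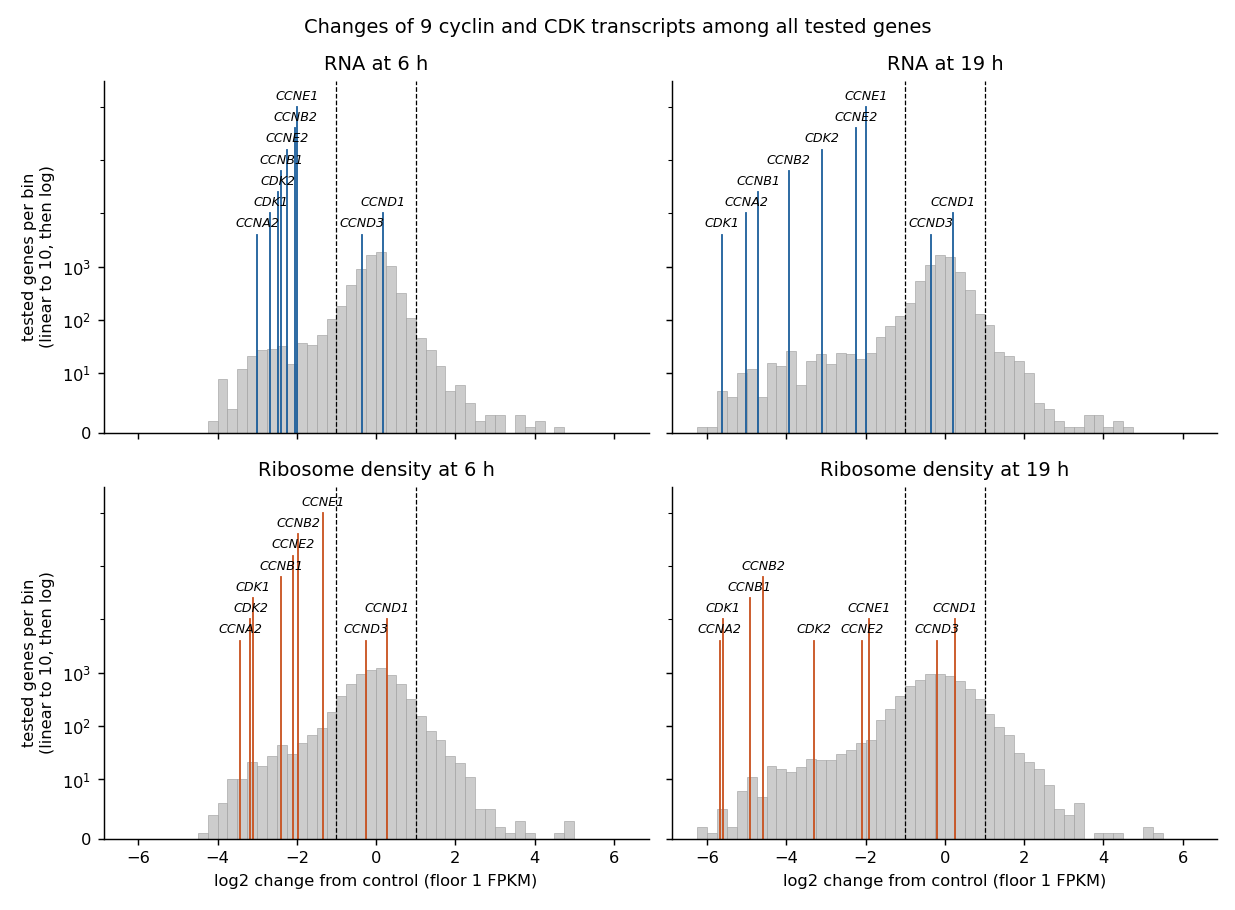
Number of tested genes (vertical axis, linear to 10 and log above) by log2 change from the control (horizontal axis, floor 1 FPKM) in RNA (top) and ribosome density (bottom) at 6 h (left) and 19 h (right). Coloured lines mark the 9 members, of which CCNE1 and CCNE2 are not among the tested genes, the heights of these lines carry no value, and dashed lines mark 2-fold. The 7 members called lie in the lower tail in every panel, and CCND1 and CCND3 lie near the peak.

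The members that were called fell at different steps. CCNE1 RNA fell between 2 and 4 h, by 1.85 on the log2 scale (counting SE 0.262), and the later steps of its RNA were within counting error. CCNE2 RNA fell by 1.96 (0.167) between 2 and 4 h and by 2.99 (0.427) between 4 and 6 h. CCNA2, CCNB1, CCNB2, CDK1 and CDK2 RNA fell most per hour between 4 and 6 h. In those 2 hours CCNA2 fell by 2.36 (0.0688), CDK1 by 2.27 (0.0783), CCNB1 by 2.02 (0.0501), CDK2 by 1.81 (0.09) and CCNB2 by 1.68 (0.069). From 6 to 19 h these 5 members parted. CDK1 RNA fell by a further 3.04 (0.22), CCNB1 by 2.32 (0.111), CCNA2 by 2.02 (0.143) and CCNB2 by 1.90 (0.132), while the step of CDK2 was -0.63 (0.127), less than 2-fold. In density CDK2 had made 87.5% of its log2 change to 19 h in the step from 4 to 6 h, against 38.1% for CDK1 and 41.2% for CCNB1.

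Before 6 h the differences of these 5 members were small but in 1 direction. At 2 h each was below the control in RNA, with log2 changes of -0.15 to -0.22, and at 4 h with log2 changes of -0.36 (CCNB1), -0.37 (CCNB2), -0.40 (CDK1), -0.64 (CCNA2) and -0.66 (CDK2). These were beyond their counting intervals. In RNA at 4 h the S phase members CCNA2 and CDK2 were the lowest relative to the control, with 0.642 and 0.635 times the control RNA, against 0.760 for CDK1, 0.773 for CCNB2 and 0.777 for CCNB1. Density had another order, with CDK1 lowest at 0.596 times the control, then CCNA2 at 0.668, CCNB1 at 0.777, CDK2 at 0.830 and CCNB2 at 0.942.

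The order of the levels changed with these losses. In control RNA it ran CCND1, CCNB1, CCNB2, CCNA2, CDK1, CCND3, CDK2, CCNE2 and CCNE1, where the neighbours CCNB2 and CCNA2, and CCND3 and CDK2, did not differ beyond counting error. At 19 h it ran CCND1, CCND3, CDK2, CCNB2, CCNB1, CCNA2, CDK1, CCNE1 and CCNE2, with no difference beyond counting error between CCNB2 and CCNB1 or between CDK1 and CCNE1. CCND3 thus moved from the sixth place to the second with less RNA than in the control. In density, with the limit on comparing genes given above, CCND1 and CCNB1 headed the control order with 226 and 119 FPKM, and CCND1 and CCND3 headed that of 19 h with 269 and 37.7 FPKM.

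As a ratio within a library does not depend on the scaling between libraries, the 7 cyclins were also taken as shares of their summed level. Their summed RNA level was 643 FPKM in the control and 671, 672, 511 and 489.8 FPKM at 2, 4, 6 and 19 h. The D cyclins held 66.7% of it in the control and 71.7%, 77.1%, 92.3% and 98.0% at 2, 4, 6 and 19 h. The B cyclins went from 23.3% to 1.48% and cyclin A2 from 8.65% to 0.35% between the control and 19 h. The E cyclins held 1.35% in the control and 0.287% at 4 h. In Ribo-Seq the shares also depend on the coding share of each transcript, with lengths from 1556 nt for CCNB2 to 4307 nt for CCND1, so their size is not comparable with that in RNA-Seq. On this scale the D cyclins held 52.9% in the control and 57.7%, 64.7%, 87.4% and 97.5% at 2, 4, 6 and 19 h, and the B cyclins went from 35.5% to 2.06%.

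**Figure D3:**
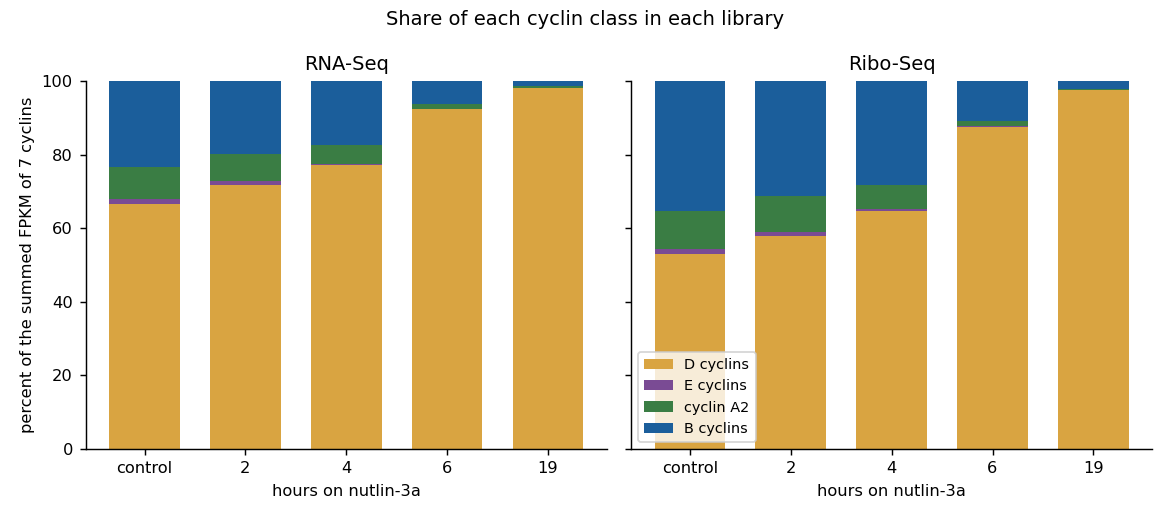
Percent of the summed FPKM of 7 cyclins (vertical axis, from 0 to 100) held by the D cyclins (CCND1, CCND3), the E cyclins (CCNE1, CCNE2), cyclin A2 and the B cyclins (CCNB1, CCNB2) in each library of RNA-Seq (left) and Ribo-Seq (right). Each bar is 1 library, and the D cyclins go from 66.7% to 98.0% in RNA-Seq and from 52.9% to 97.5% in Ribo-Seq.

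Of the members, none was called in TE at any time, 0 of 9 at each, against 1.2%, 0.998%, 5.74% and 6.14% of the tested genes called in either direction at 2, 4, 6 and 19 h. At such shares a count of 0 among 9 genes says little. CCNE2 at 6 and 19 h, and CCNE1 and CDK1 at 19 h, were under the floor of 1 FPKM in both assays and could not be called. Without the floor the count was 0 of 9 as well. In the control log2 TE ran from -0.78 (counting SE 0.0153) for CCND1 to 0.36 (0.0334) for CCNB1, with a median of -0.27 over the tested genes. CCND1 was the lowest member there, with 26.8% of tested genes below it, and CCNB1 the highest, with 77.5%. As differences in TE between genes also carry the coding share of each transcript, only changes within a gene are followed here.

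For the D cyclins TE was nearly flat. CCND1 log2 TE lay between -0.78 and -0.67 and CCND3 log2 TE between 0.09 and 0.26 in all libraries. CCNB1 was the flattest of the members that fell, with log2 TE changes of 0.08, -0.00, -0.00 and -0.22 at 2, 4, 6 and 19 h, so that its density followed its RNA to within 1.06-fold up to 6 h. Its change at 19 h was within counting error (0.860 times the control, 0.649 to 1.14).

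For CDK2, CCNA2 and CDK1 the density had fallen further than the RNA at 6 h. For CCNA2 and CCNB2 it had at 19 h, both with the floor of 1 FPKM and as deposited, though on few Ribo-Seq reads. CDK2 TE was 1.31 times (1.16 to 1.48) the control at 4 h, 0.616 times (0.477 to 0.795) at 6 h and 0.862 times (0.636 to 1.17) at 19 h. CCNA2 TE was 0.741 times (0.608 to 0.903) the control at 6 h and 0.554 times (0.341 to 0.900) at 19 h, as deposited, on 19 Ribo-Seq reads at 19 h. Its log2 TE change at 19 h was -0.66 with the floor of 1 FPKM and -0.85 as deposited. With a floor of 5 FPKM it was 0.12, but both values of 19 h lie under that floor. This value is therefore the control log2 TE of -0.12 with its sign reversed and holds no measurement of 19 h. CDK1 TE was 0.784 times (0.703 to 0.875) at 4 h and 0.736 times (0.590 to 0.918) at 6 h. CCNB2 TE was 1.22 times (1.10 to 1.35) the control at 4 h and 0.643 times (0.434 to 0.953) at 19 h. Its log2 TE change at 19 h was -0.64, with the floor of 1 FPKM and as deposited alike. With a floor of 5 FPKM it was -0.11, which is again only the control value with its sign reversed. The members did not share 1 direction at 4 h, when CDK2 and CCNB2 were above and CDK1 below the control, and the tested genes had a median log2 TE change of 0.18. CCNE1 TE was 1.90 times (1.12 to 3.25) the control at 6 h as deposited, on 44 RNA-Seq and 29 Ribo-Seq reads, and with the floor its log2 TE change there was 0.64. CCNE2 had at most 13 reads in either assay from 6 h on, and its TE intervals at 6 and 19 h both included 1.

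**Figure D4:**
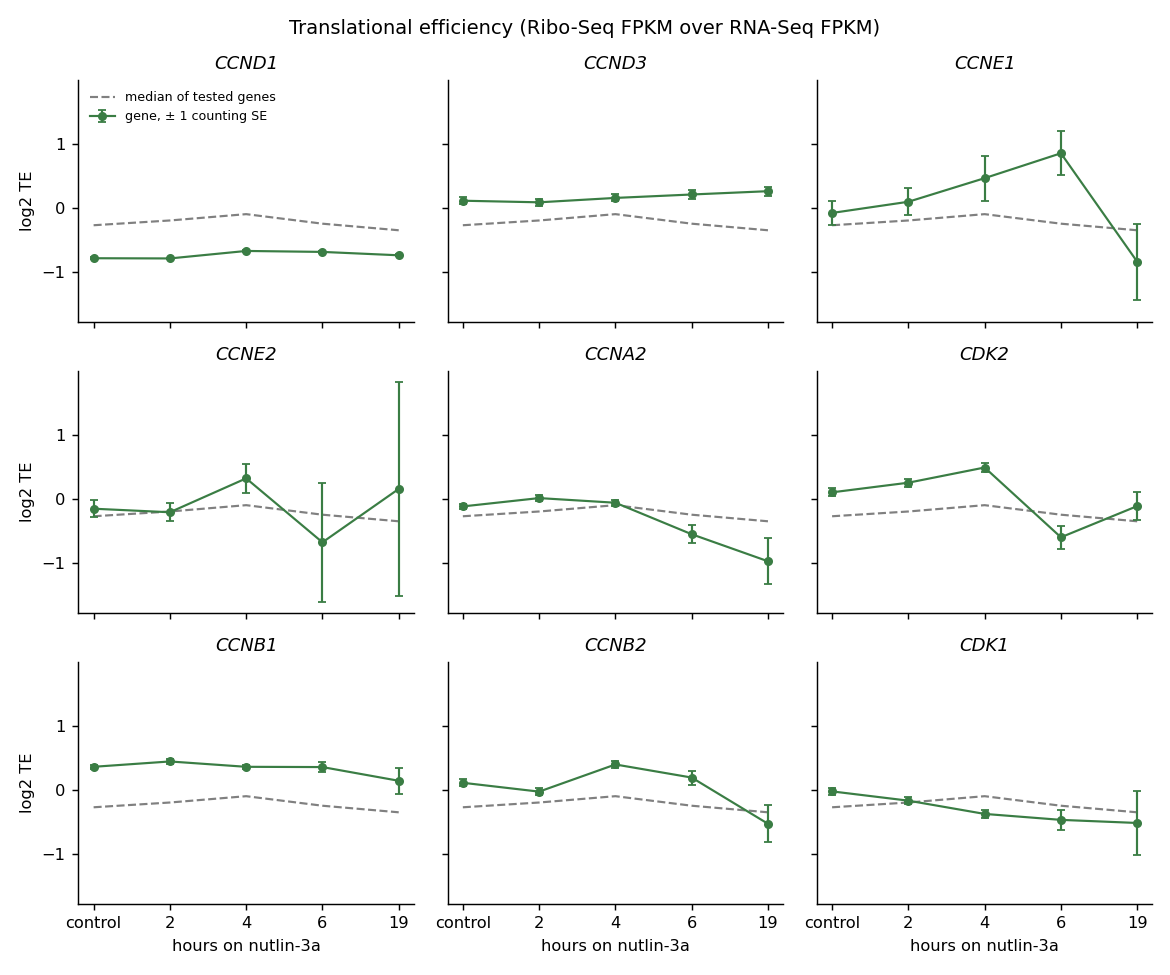
Log2 ratio of Ribo-Seq to RNA-Seq FPKM as deposited (vertical axis) for each transcript in the control and at 2, 4, 6 and 19 h, with evenly spaced times. Points are 1 pair of libraries each, bars are 1 counting SE on either side, and the dashed line is the median of the tested genes. CCND1, CCND3 and CCNB1 run close to level, while the bars of CCNE1 and CCNE2 widen to up to 1.67 at 19 h.

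For each member that passed the filter, the tested genes with the most similar course were sought among 7008 genes that are not members, by the root mean square difference of 8 log2 changes, those of RNA and density at the 4 times. The nearest to CCNB1 were PRC1 at 0.139 and SHCBP1 at 0.173. CCNB2, the nearest of the 8 other members, was at 0.377, but a close course is found more easily among 7008 genes than among 8. PRC1, which encodes a protein that bundles microtubules in the spindle midzone, had 114 FPKM of RNA in the control and 3.98 at 19 h. The nearest to CCNB2 were TRIP13 at 0.197 and PRR11 at 0.241. For CDK1 they were CDC20, the activator of the anaphase-promoting complex, at 0.227 and the kinesin gene KIF20A at 0.246, and for CCNA2 the kinase gene PBK at 0.276 and CDC20 at 0.326. CDK1 and CCNA2 were the members nearest to each other, at 0.310.

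CDK2 was apart from the other members. Its nearest genes were SUV39H1 at 0.197 and EZH2 at 0.232, which encode histone methyltransferases, and its nearest member, CCNB2, was at 0.718. EZH2 RNA was 24.4 FPKM in the control and 2.60 at 19 h, and SUV39H1 RNA 8.40 and 0.974 FPKM. The nearest to CCND1 were HMGXB3 at 0.0715 and AEBP2 at 0.0857, and to CCND3 they were RANBP9 at 0.0649 and PCBP1 at 0.0821. The D cyclins lie where most genes lie, so small differences are easily found there.

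The rest of the pathway was followed by lists of genes with known roles, again by the 2-fold call at 19 h, with 7.1% of all tested genes called lower and 2.49% higher in RNA, and 14.9% lower and 6.22% higher in density. Genes were tested on their highest library of each assay, so those that fell had passed through the control. Of the other cell-cycle cyclins and CDKs, 3 of 5 genes were tested, and 1 was called lower in RNA and 2 in density. CCNF, the cyclin that serves as an F-box protein, fell from 20.3 FPKM of RNA in the control to 0.902 at 19 h. CDK4 and CDK6 are the kinase partners of the D cyclins. CDK4 RNA was 105 FPKM in the control and 98.7, 94.7, 66.2 and 58.9 at 2, 4, 6 and 19 h, a log2 change of -0.83 (counting SE 0.038) at 19 h, and its density was called lower with -1.07. CDK6 RNA was 16.9, 18.5, 23.4, 19.5 and 17.7 FPKM in the same order.

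All 5 tested genes that set the phosphorylation of CDKs or bind them as small subunits were called lower in both assays, of 7 listed. The inhibitory kinases PKMYT1 and WEE1 had log2 RNA changes of -4.76 and -1.46 at 19 h, the activating phosphatase CDC25B -1.35, and the CDK subunits CKS1B and CKS2 -3.34 and -3.30. The 3 genes of the CDK-activating kinase, CDK7, CCNH and MNAT1, were not called in RNA, with log2 changes of -0.14, -0.24 and -0.16, and CCNH, named after its values were seen, was called in density with -1.07. Of 7 CDK inhibitors 4 were tested. CDKN1A was called higher with a log2 RNA change of 4.26, CDKN2D and CDKN2C, inhibitors of CDK4 and CDK6, were called lower with -2.71 and -2.32, and CDKN1B (p27) was at -0.72.

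The next lists hold cyclins and CDKs with roles outside the cell cycle. None of 9 tested genes of the cyclins and CDKs that act on RNA polymerase II and splicing was called in RNA or density, with CCNL1 and CDK13 at log2 RNA changes of -0.00 and 0.00. Of all tested genes 7.1% were called lower and 2.49% higher in RNA, and 14.9% and 6.22% in density, so 0 among 9 genes says little. Of 4 tested atypical cyclins and CDKs only CCNG1, a p53 target, was called in RNA, from 38.3 to 125 FPKM, and CDK5 and CCNI were at 0.17 and -0.18. Of 10 tested E2F, RB and DREAM genes 4 were called lower in RNA and 6 in density, among them MYBL2 with -5.55 in RNA, E2F1 with -4.77, FOXM1 with -3.02 and TFDP1 with -1.10, while E2F7 and LIN37 were at 0.01 and 0.04. Of the DREAM complex described above, E2F4 was called in neither assay, with -0.38 in RNA and -0.26 in density. RBL2, the gene of p130, was not tested. RBBP4, also of this list, was at -0.66 in RNA and called lower in density with -1.08. These 3 genes were named after their values were seen. Of 9 tested genes of cyclin ubiquitin ligases 4 were called lower in RNA and 5 in density, namely CDC20 with -5.74, UBE2C with -5.41, UBE2S with -2.57 and SKP2 with -1.21 in RNA, and CUL1 was at -0.29. SKP1, a subunit of the SCF ligase, was at -0.02 in RNA and was the fifth gene called in density, with -1.04. E2F7, a repressor of the E2F family, had 10.3 FPKM of RNA in the control and 11.0, 30.2, 10.6 and 10.3 at 2, 4, 6 and 19 h, so that its level at 4 h alone was apart from the others.

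**Figure D5:**
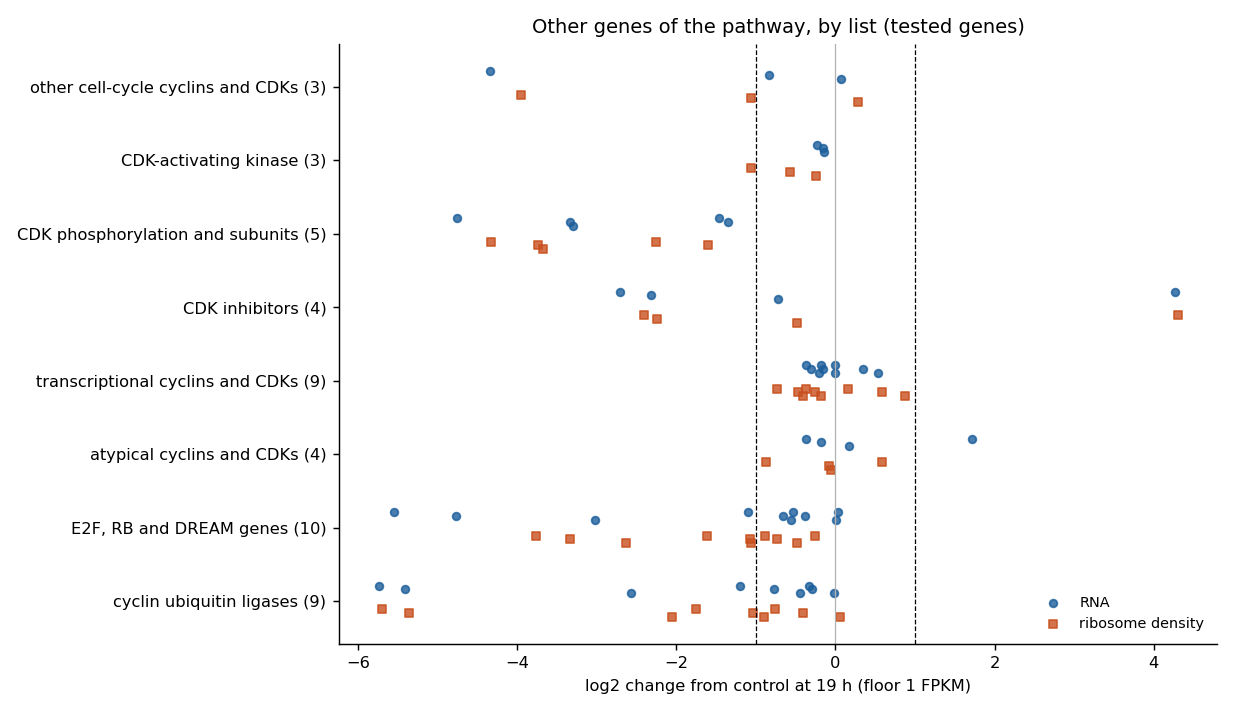
Log2 change from the control at 19 h (horizontal axis, floor 1 FPKM) of the tested genes of 8 pathway lists (rows, with the number tested), in RNA (blue circles) and ribosome density (orange squares). Each point is a gene in 1 treated and 1 control library, and dashed lines mark 2-fold. The transcriptional cyclins and CDKs lie between the lines, and the genes of CDK phosphorylation and subunits lie to the left of them.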

How the data were processed

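RNA-Seq and Ribo-Seq each had 5 libraries, 1 per group, and every value column was matched to a sample by its name. The authors deposited FPKM per transcript, with 1 isoform per gene of Ensembl release 65, from uniquely mapped reads, so reads shared by paralogs were lost. The submitters' processing notes name Bowtie and hg19. Read numbers were recovered from the steps between FPKM values for 11239 of 11258 transcripts (99.8%). For all 9 members this gave the same transcript length in both tables, although the study's methods describe coding-sequence reads for Ribo-Seq. A table named for both assays was read as RNA-Seq, since the other table is named for Ribo-Seq alone. In the control of the table so read, 20 of 27 histone transcripts were below 1 FPKM. Log2 changes were computed after a floor of 1 FPKM. A gene was tested if it reached 5 FPKM in 1 or more libraries of both assays, and called at 2-fold. Intervals of 95% are exact for reads of a single gene in a pair of libraries, or from the counting SE for ratios and TE. No p-value was computed. Named genes were all members, the 2 most similar genes per member, and for each pathway list up to 4 called genes with the largest RNA changes at 19 h and up to 2 tested genes with the smallest. CCNH, E2F4, RBL2 and RBBP4 were added after their values were seen. The members and lists were chosen with earlier results of these data known. Scripts were tested on simulated data and used Python 3.11.15, numpy 2.4.6, pandas 2.3.3, scipy 1.17.1 and matplotlib 3.10.9. The alternatives tried were other floors, filters, folds, a pseudocount, no floor, the 2 h library as baseline, centring on the median and the study's cutoff by local SD.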

Additional observations from a re-analysis of the deposited data

How the results depend on the processing

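With a floor of 5 FPKM the members called at 4 h went from 2 to 0 in RNA (0.499% of the tested genes) and from 2 to 0 in density (0.271%), as both E cyclins then lay under the floor. With a fold of 1.5 the members called were 4 in RNA at 4 h (3.58%), 2 in TE at 6 h (25.6%) and 2 in TE at 19 h (24.6%), against 0 in TE at 2-fold. With the study's cutoff by local SD they were 4 in RNA at 4 h (3.04%) and 4 in density at 4 h (1.35%). The other 86 values of these counts stayed within 1.5 times. Among them, the 7 of 9 members called at 6 and 19 h were 5 of 9 in both assays with a floor of 5 FPKM. The shares of tested genes were then 4.59% and 6.10% in RNA and 5.86% and 11.2% in density. With the cutoff by local SD they were 6 and 5 in RNA (4.73% and 5.00%) and 5 and 5 in density (4.56% and 5.37%). With a pseudocount of 1 they were 6 in density at 6 h (6.84%). Of the values for single members 761 moved by less than their 95% counting interval and 76 by more. Of these values 12 changed sign, 0 of them called at 2-fold, and 6 of the 12 moved past the counting interval. CCNA2 log2 TE change at 19 h went from -0.66 to 0.12 with a floor of 5 FPKM. Both values of 19 h lie under that floor, so this change of sign holds no measurement of 19 h. Against the 2 h library, CCNB2 density at 4 h went from -0.09 to 0.24 and CCNA2 TE at 4 h from 0.06 to -0.07. Centred on the median of tested genes, TE at 4 h went from 0.11 to -0.07 for CCND1, from 0.04 to -0.14 for CCND3 and from 0.06 to -0.12 for CCNA2. No paired analysis was possible because each group held 1 library. With 1 library per group, culture and preparation cannot be told apart from time on nutlin-3a, and the counting intervals hold neither. The study's methods describe an effect of the sequencing run, and the labels name no run. Depth limits CCNE1, CCNE2 and CDK1 at 19 h, which rest on 7, 1 and 10 Ribo-Seq reads.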
